A study of Mus musculus with 16 samples.

Results

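The response of brown adipocytes to SR-3420 in the presence of triacsin C was measured by RNA-seq in 6 of the 16 samples of the series, 3 with triacsin C alone (TC) and 3 with triacsin C and SR-3420 (TC+SR-3420), chosen by the treatment named on their labels. Lipolysis splits stored triacylglycerol into fatty acids and glycerol, and begins when the protein ABHD5 activates the lipase ATGL on the lipid droplet. Long-chain acyl-CoA synthetases then couple the fatty acids to coenzyme A, the form in which they are oxidised, re-esterified or built into other lipids, so that blocking these enzymes separates the release of fatty acids from most of their later use. SR-3420 is a ligand of ABHD5 that starts lipolysis without a β-adrenergic signal, and triacsin C (written Triascin C on the labels) inhibits long-chain acyl-CoA synthetases.

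The cells were BAT-LgT brown preadipocytes of mouse, a single line made immortal by SV40 large T antigen, differentiated in culture for 7 days. All groups were pre-treated for 1 h, TC and TC+SR-3420 with 5 µM triacsin C, and were then held for 3 h without or with SR-3420. The labels give 10 µM SR-3420, whereas the text of the study gives another dose. For comparison the series holds the same stimulus without an inhibitor (vehicle and SR-3420, 2 samples each) and after 50 µM etomoxir, an inhibitor of the carnitine palmitoyltransferase that admits long-chain fatty acids to mitochondria (ETO and ETO+SR-3420, 3 samples each). Vehicle replicate 1 and SR-3420 replicate 2 were not analysed here.

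The total counts were 9452861, 15818919 and 13164376 in TC replicates 1, 2 and 3, and 16265789, 12043744 and 10659704 in TC+SR-3420 replicates 1, 2 and 3. Within these groups 0 of 6 pairs of samples were identical, and the pairs differed by 4.37 to 57.3 times sampling noise (chi-square per degree of freedom). Levels are given as CPM, the count of a gene relative to the total of its sample, after TMM normalization, a scaling for differences in composition between samples. Of the 20295 genes in the table, 12786 passed a filter on low counts and were tested with edgeR. A gene is said to have risen or fallen when its Benjamini-Hochberg adjusted p was under 0.05 and its log2 fold change (log2FC) at least 1 in size. By these criteria 5.24% of the genes tested rose and 9.57% fell. At an adjusted p under 0.05 at any size 17.3% were higher and 19.7% lower in TC+SR-3420, at an unadjusted p under 0.05 22.2% were higher and 24.3% lower, and 50.8% had a log2FC above 0 and 49.2% below 0. Counts within gene lists are to be read against these shares. Some genes, Atf3, Ero1l and Cox8b among them, stand in several lists, so that the counts of different lists are not independent.

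The adipocyte identity of the cells was checked on marker genes. Fabp4, which encodes a fatty acid-binding protein, was the most abundant of 12 brown adipocyte markers in each of the 6 samples, and none of the 12 was at 0. Their summed level was 16269, 17769 and 16920 CPM in TC and 6411, 6445 and 6552 CPM in TC+SR-3420. The TC samples were thus all above the TC+SR-3420 samples, and 6 of the 12 markers fell and 0 rose in edgeR and in DESeq2. At an adjusted p under 0.05 at any size 8 were lower and 1 higher in edgeR, against 19.7% and 17.3% of all genes tested. The higher one was Prdm16, a transcription factor gene, with a log2FC of 0.74 (adjusted p = 0.04315 in edgeR). Among the fallen were the respiratory chain subunit gene Cox8b and the droplet protein gene Cidec, with log2FC of -1.99 and -1.59. The thermogenic uncoupling protein gene Ucp1 was detected at only 1.85 ± 0.823 CPM in TC and 3.20 ± 0.621 CPM in TC+SR-3420 (SD, n = 3 each). Its log2FC was 0.75 (SE 0.46, adjusted p = 0.2211 in edgeR). The nuclear receptor gene Pparg, a master regulator of adipocyte differentiation, stood at 118 ± 4.13 CPM in TC and 119 ± 10.2 CPM in TC+SR-3420 (SD, n = 3 each), with a log2FC of 0.01 (SE 0.17, adjusted p = 0.959 in edgeR). With trends over length and GC content removed, a setting chosen after the data were seen that holds only the 11959 genes with a GC content, its log2FC was -0.48 (adjusted p = 0.001278 in edgeR), and it was -0.01 without TC replicate 1 and -0.06 without TC+SR-3420 replicate 3.

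Of 12 preadipocyte and fibroblast markers, led by the collagen gene Col1a1, the summed level was 2942, 2507 and 2297 CPM in TC and 5072, 4262 and 3658 CPM in TC+SR-3420. Here the TC+SR-3420 samples were all above the TC samples, and of 10 markers tested 1 rose, Cd34, a sialomucin gene. At an adjusted p under 0.05 at any size 4 of the 10 were higher and 0 lower, against 17.3% and 19.7% of all genes tested. All 10 had a log2FC above 0, against 50.8% of all genes tested. Col1a1 itself had a log2FC of 0.90 (adjusted p = 0.05254 in edgeR). It passed both thresholds without TC+SR-3420 replicate 3 (1.07, adjusted p = 0.04627) and with trends over length and GC content removed (1.102, adjusted p = 4.4e-05). In TC+SR-3420 replicate 3, 1 marker of this list was at 0. In bulk RNA, fewer cells of a type and less RNA per cell cannot be told apart. The part of these marker genes in the results was not tested. Macrophage markers, led by Cd68, summed to 23.4, 27.5 and 25.03 CPM in TC and to 15.3, 16.2 and 14.5 CPM in TC+SR-3420, and 3, 0 and 1 of the 10 were at 0 in TC replicates 1, 2 and 3 and 2, 3 and 3 in TC+SR-3420. Of the 3 macrophage markers tested Cd68 fell. Endothelial markers summed to 2.90, 7.9996 and 4.85 CPM in TC and to 9.67, 10.8 and 7.04 CPM in TC+SR-3420, and skeletal muscle markers to 15.1, 17.7 and 21.1 CPM and to 16.7, 17.2 and 12.01 CPM, so that both lists overlapped between the groups. Of the 4 muscle markers tested 1 fell, Des, an intermediate filament gene, with a log2FC of -1.23 (adjusted p = 0.00273 in edgeR). The median log2FC was 0.93 over the 3 endothelial markers tested and 0.19 over the muscle markers. They became 0.48 and 0.56 with those trends removed, and the latter 0.08 without TC+SR-3420 replicate 1.

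**Figure D1:**
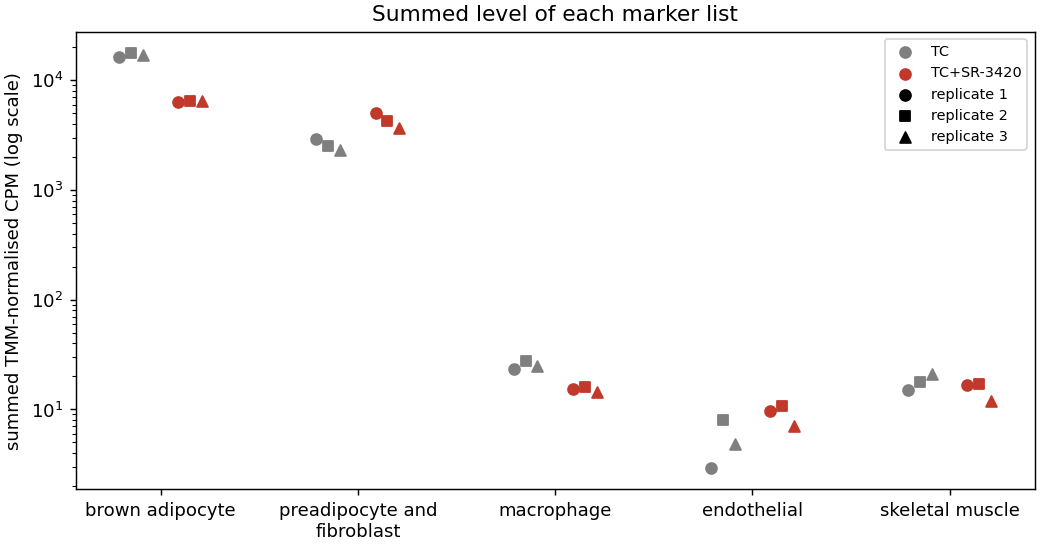
Summed TMM-normalised CPM (log scale) of 5 lists of cell type markers, with a point for each of the 3 TC and 3 TC+SR-3420 samples. Brown adipocyte markers lie between 16269 and 17769 in TC and between 6411 and 6552 in TC+SR-3420.

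Between TC and TC+SR-3420, 670 genes rose (5.24% of those tested) and 1223 fell (9.57%). The largest fold changes were ranked only among genes with a mean of at least 5 CPM and no overlap of groups. The epidermal growth factor receptor ligand gene Areg, the cytokine genes Lif and Il11, the prostaglandin synthase gene Ptgs2 and the cystine transporter gene Slc7a11 were among the 12 raised genes with the largest fold changes. Among the 12 lowered genes were Pmp2 and Fabp9, adjacent members of the fatty acid-binding protein family, and Ppp1r3c, which directs a phosphatase to glycogen. Leaving aside cell type markers, the gene lists with the largest shares of raised genes were AP-1 and immediate early genes (63.3%) and the epidermal growth factor family (50.0%). Those with the largest shares of lowered genes were the carnitine shuttle and β-oxidation (54.55%) and lipases and lipid droplet proteins (50.0%). No test was made of a list. The groups did not overlap for 665 of the raised and 1214 of the lowered genes, nor for 7152 of the 12786 genes tested (55.9%). The median log2FC over all genes tested was 0.02. The study describes its RNA-seq samples as independent experiments, which the labels do not state.

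Areg was at 0.645, 0.547 and 0.455 CPM in TC replicates 1, 2 and 3 and at 12.5, 20.0 and 14.3 CPM in TC+SR-3420 replicates 1, 2 and 3. It was under 1 CPM in every TC sample and above 12 CPM in every TC+SR-3420 sample, with a log2FC of 4.82 (SE 0.49, adjusted p = 1.372e-05 in edgeR). Ch25h, which encodes cholesterol 25-hydroxylase, was at 2.90, 3.08 and 2.35 CPM in TC and at 82.0, 62.5 and 68.7 CPM in TC+SR-3420. The groups were far apart, with a log2FC of 4.67 (SE 0.25, adjusted p = 1.985e-07 in edgeR). Lif was at 2.26, 5.06 and 3.56 CPM in TC and at 33.2, 38.7 and 33.3 CPM in TC+SR-3420. Each TC+SR-3420 sample was above each TC sample, with a log2FC of 3.25 (SE 0.28, adjusted p = 4.892e-06 in edgeR). Ptgs2, the inducible cyclooxygenase gene, was at 103, 114 and 117 CPM in TC and at 748, 852 and 1104.5 CPM in TC+SR-3420, again with no overlap, and rose by a log2FC of 3.02 (SE 0.31, adjusted p = 1.399e-05 in edgeR). The other genes of the 12 were Gm13889, Gdnf (a neurotrophic factor), Has1 (a hyaluronan synthase), Calcrl (a receptor of the calcitonin family), Slc7a11, Il11, Ereg (a ligand of the epidermal growth factor receptor) and Ifi203, with log2FC between 2.94 and 4.97.

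Ppp1r3c was at 83.0, 79.2 and 100.3 CPM in TC replicates 1, 2 and 3 and at 7.75, 6.91 and 9.57 CPM in TC+SR-3420 replicates 1, 2 and 3. Every TC sample was far above every TC+SR-3420 sample, and the gene fell by 3.44 on the log2 scale (SE 0.38, adjusted p = 2.5e-05 in edgeR). Pmp2 was at 62.2, 52.4 and 61.8 CPM in TC and at 1.22, 1.18 and 1.501 CPM in TC+SR-3420. The groups did not overlap, with a log2FC of -5.50 (SE 0.29, adjusted p = 1.985e-07 in edgeR). Fabp9 lies next to Pmp2 on chromosome 3, and reads of these related genes may be shared, so that its log2FC of -5.04 is uncertain. Rhof, a small GTPase gene, was at 32.8, 33.7 and 31.2 CPM in TC and at 4.80, 4.30 and 3.94 CPM in TC+SR-3420, with little spread within either group. The other genes of the 12 were Rgs9bp, Trim72, 2010003K11Rik, Card6, Tmem179, Tmem79, Pm20d2 and Gzmm, with log2FC between -3.34 and -2.58.

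**Figure D2:**
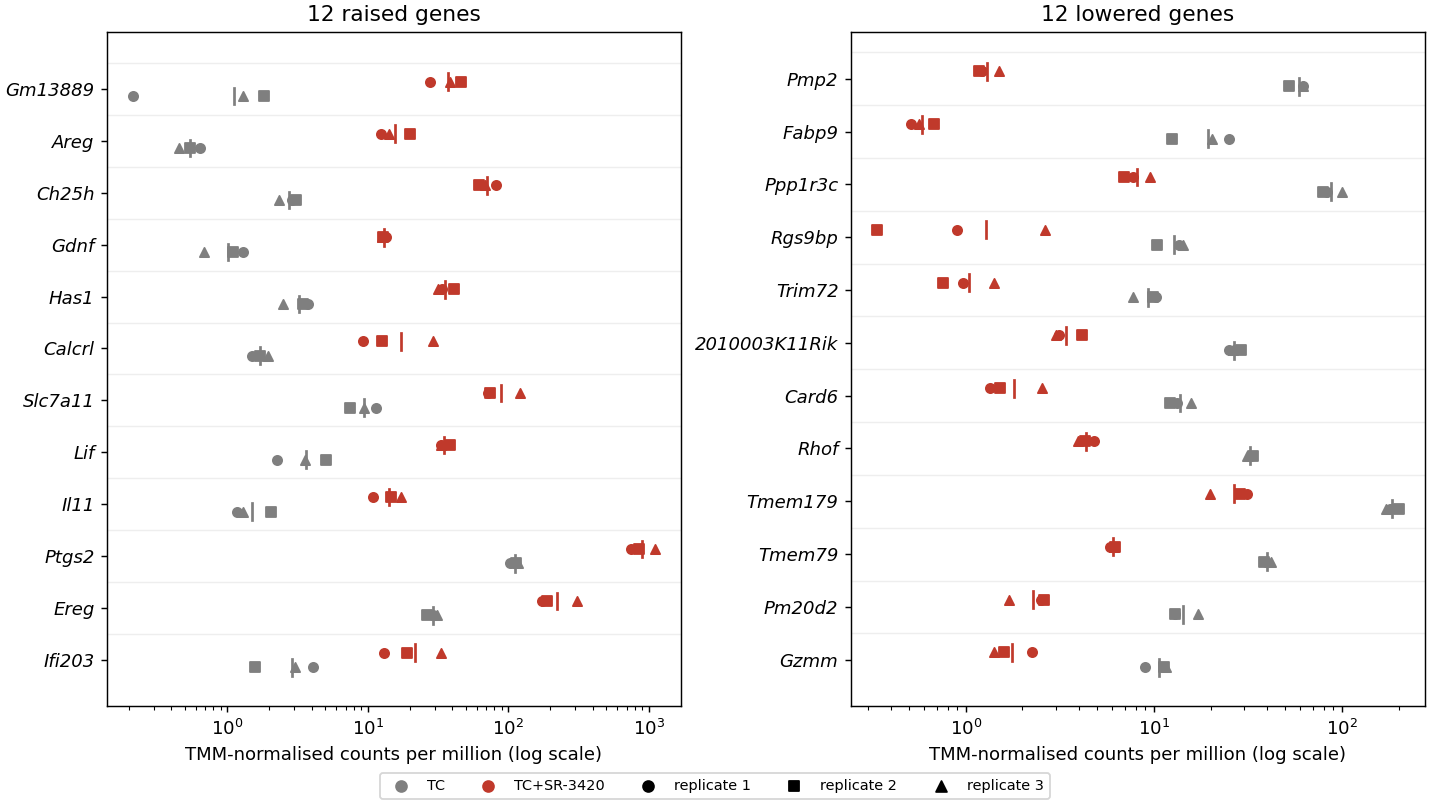
TMM-normalised CPM (log scale) of the 12 raised and the 12 lowered genes with the largest fold changes, with a point per sample (marker shape gives the replicate) and a bar at the group mean. The genes were chosen among those with a mean of at least 5 CPM whose groups do not overlap. The gap between the 3 TC and the 3 TC+SR-3420 samples is thus part of the choice.

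Immediate early genes are switched on within minutes of many stimuli, and many of them encode transcription factors. Of 30 tested genes of AP-1 and the immediate early response, 19 rose and 0 fell, with a median log2FC of 1.40. Egr1, a zinc finger factor, was at 103, 106 and 95.0 CPM in TC and at 766, 647 and 614 CPM in TC+SR-3420. The groups did not overlap, and the log2FC was 2.74 (SE 0.15, adjusted p = 2.063e-07 in edgeR). Nr4a3, Fosb and Egr2 rose with log2FC of 2.84, 2.41 and 2.28. Of 18 phosphatase and Sprouty genes, whose products feed back on MAP kinases, 8 rose, 0 fell and 10 were not called (median log2FC 1.00), and at an adjusted p under 0.05 at any size 11 were higher and 1 lower. The largest rises were those of Dusp5, Spry2 and Dusp1 with log2FC of 2.52, 2.30 and 2.28. Errfi1, whose product inhibits the epidermal growth factor receptor, rose with 1.40. Of 12 genes of the epidermal growth factor family, 6 rose and 0 fell (median log2FC 0.71, or 1.12 over genes with at least 10 counts in every sample), among them Areg, Ereg and Hbegf, the last at 42.5, 55.2 and 46.2 CPM in TC and at 227, 238 and 223 CPM in TC+SR-3420. Of 31 cytokine, chemokine and NF-kB feedback genes, 8 rose (25.8%) and 0 fell (median log2FC 0.53). Of 14 KLF factor genes 4 rose, among them Klf5, Klf4 and Klf6 (log2FC 1.94, 1.82 and 1.57), and 1 fell. In the AP-1, MAP kinase, epidermal growth factor and cytokine lists DESeq2 called 0 lowered genes as well, and 0, 1, 0 and 1 genes were lower at an unadjusted p under 0.05 in edgeR.

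Of 40 targets of ATF4, the transcription factor of the integrated stress response, 18 rose and 1 fell, with a median log2FC of 0.87. Slc7a11 was at 11.5, 7.45 and 9.48 CPM in TC and at 72.0, 74.5 and 123 CPM in TC+SR-3420. TC+SR-3420 replicate 3 was the highest, and all 3 were above the TC samples, with a log2FC of 3.25 (SE 0.39, adjusted p = 3.95e-05 in edgeR). The secreted glycoprotein gene Stc2, the factor gene Atf3 and the stress hormone gene Gdf15 rose with log2FC of 2.55, 2.20 and 2.19. Of 42 genes of the endoplasmic reticulum that fold and degrade proteins, 3 rose (Ero1l, Atf6 and Ern1) and 1 fell (Derl3). At an adjusted p under 0.05 at any size 11 were higher and 1 lower in edgeR, against 17.3% and 19.7% of all genes tested, and 31 of the 42 had a log2FC above 0, against 50.8% of all. Their median log2FC of 0.16 became 0.26, 0.25 and 0.08 without TC+SR-3420 replicates 1, 2 and 3. With trends over length and GC content removed it was 0.34, and Atf6 (0.90) and Ern1 (0.88) missed the fold threshold. Ero1l encodes an oxidase that drives disulfide formation, and Atf6 and Ern1 encode sensors of unfolded protein. Of 24 markers that the study named for the unfolded protein response, a list that is not independent of these data, 11 rose and 0 fell in edgeR (12 and 0 in DESeq2, with 1 lower at an unadjusted p under 0.05). They include Ppp1r15a, which directs a phosphatase to eIF2α, with a log2FC of 2.12. Of 36 aminoacyl-tRNA synthetase genes 0 rose and 2 fell by these criteria with edgeR, 0 and 0 were called by DESeq2, and 12 were higher and 7 lower at an adjusted p under 0.05 at any size, or 14 and 10 at an unadjusted p under 0.05. Over all genes tested these shares were 17.3% and 19.7%, or 22.2% and 24.3%, and the lower members of the list are near them. Of 30 cytosolic heat shock genes, 2 rose (6.67%), Hspa1a and Hspa1b, whose near-identical sequences make the split of reads between them uncertain, and 3 fell (10.0%), among them the related genes Hspa1l (-1.58) and Hspa2 (-1.46).

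Promoters are shown for genes that hold an exact copy of either of 2 motifs, TGACGTCA (the CRE, bound by CREB and ATF dimers) and TTGCATCA (the CARE, bound by ATF4 with C/EBP). The CRE was in the promoters of 19 raised and 23 lowered genes, of which 5 and 1 are printed, and the CARE in those of 7 raised and 9 lowered genes, of which 3 and 1 are printed. The printed ones were chosen after their values were seen, among genes that the text names, and do not stand for the rest. The window searched was the 250 bases before the start site on both strands, in build NCBIM37 (mm9). Each motif was searched by itself, and of 369 copies of the CRE 1 shared bases with an E-box (CACGTG), 2 with a CCAAT box and 0 with another motif searched, while of 62 copies of the CARE 0 did. The capitals mark the motif in either orientation (TGATGCAA is the CARE read on the other strand), and each stretch is written 5′ to 3′ on the strand of its gene. The CRE was in 2.84% of 669 promoters of raised genes, 1.88% of 1223 of lowered genes and 2.81% of 12783 of all genes tested. The CARE was in 1.05%, 0.736% and 0.477% of them. A match is a description, not a site or a cause. The promoters with a CRE were those of Areg (chr5:91568539-91568596, plus strand), Ch25h (chr19:34549667-34549724, minus), Has1 (chr17:17992203-17992260, minus), Dusp1 (chr17:26645528-26645585, minus), Ppp1r15a (chr7:52781639-52781675, minus) and the lowered lipase gene Pnpla3 (chr15:83998175-83998232, plus). Those with a CARE were those of Slc7a11 (chr3:50247550-50247626, minus, 2 copies), Atf3 (chr1:193007290-193007347, minus), Fgf21 (chr7:52870967-52871024, minus) and the lowered β-oxidation gene Echs1 (chr7:147302452-147302509, minus).
Areg: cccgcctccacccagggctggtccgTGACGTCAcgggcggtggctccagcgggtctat
Ch25h: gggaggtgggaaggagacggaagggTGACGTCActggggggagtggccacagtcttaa
Has1: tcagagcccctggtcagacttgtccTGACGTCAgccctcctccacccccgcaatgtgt
Dusp1: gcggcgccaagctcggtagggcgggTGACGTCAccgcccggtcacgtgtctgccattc
Ppp1r15a: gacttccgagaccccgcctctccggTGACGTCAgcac
Pnpla3: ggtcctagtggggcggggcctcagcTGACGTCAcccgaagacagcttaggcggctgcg
Slc7a11: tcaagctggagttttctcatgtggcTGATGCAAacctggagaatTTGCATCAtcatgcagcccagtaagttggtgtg
Atf3: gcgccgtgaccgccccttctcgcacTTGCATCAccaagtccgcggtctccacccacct
Fgf21: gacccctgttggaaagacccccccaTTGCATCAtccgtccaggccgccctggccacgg
Echs1: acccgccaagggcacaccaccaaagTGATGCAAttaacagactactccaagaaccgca

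The 7-base AP-1 site TGANTCA was in 7.03% of promoters of raised genes, 4.5% of those of lowered genes and 4.14% of all. The heat shock element core GAANNTTC was in 3.14%, 7.03% and 4.83% of them. The CCAAT box was in 30.0%, 40.3% and 36.1%, and the GC box GGGCGG in 60.8%, 50.4% and 60.3%. No test was made of these shares.

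Over the genes of the carnitine shuttle and of mitochondrial β-oxidation, which carry fatty acids into mitochondria and break them down, falls prevailed. Of 22 tested, 12 fell and 0 rose, and 21 of the 22 were lower at an adjusted p under 0.05 in edgeR, against 19.7% of all genes tested (median log2FC -1.06). Cpt2, which releases fatty acids from carnitine inside the mitochondrion, was at 218, 253 and 257 CPM in TC and at 63.7, 70.1 and 57.9 CPM in TC+SR-3420. The groups did not overlap, and the gene fell by 1.93 on the log2 scale (SE 0.14, adjusted p = 1.731e-06 in edgeR). Acads, Eci1 and Echs1, which encode enzymes that oxidise short acyl-CoA, move double bonds and hydrate enoyl-CoA, had log2FC of -1.70, -1.68 and -1.45. Of 29 genes of the tricarboxylic acid cycle and pyruvate dehydrogenase, 10 fell and 1 rose (median log2FC -0.86). The kinase and phosphatase of pyruvate dehydrogenase encoded by Pdk2 and Pdp2 had log2FC of -1.54 and -1.52, and pyruvate carboxylase, Pcx, which overlaps another gene, -1.45. Of 80 nuclear-encoded subunits of the respiratory chain 25 fell and 0 rose, and 79 of the 80 had a log2FC below 0, against 49.2% of all genes tested (median -0.91, or -0.54 with trends over length and GC content removed). Sdha, the flavoprotein of succinate dehydrogenase, was at 1273, 1442 and 1346 CPM in TC and at 524, 566 and 520 CPM in TC+SR-3420, with log2FC -1.33. The subunit genes Cox8b (-1.99) and Ndufv3 (-1.29) fell as well. Mitochondrial ribosomal proteins had a median log2FC of -0.51 with 2 of 76 fallen (2.63%), but at an adjusted p under 0.05 at any size 36 were lower and 0 higher in edgeR, against 19.7% and 17.3% of all genes tested, and 73 of the 76 had a log2FC below 0. At an unadjusted p under 0.05 50 were lower and 0 higher. Cytosolic ribosomal proteins had a median of 0.10 with 1 of 79 fallen (1.27%), and 1 higher and 1 lower at any size. With the trends removed these medians were -0.17 and 0.53. In the β-oxidation and respiratory chain lists DESeq2 called 11 and 22 lowered genes and 0 raised, and 1 gene of each was higher at an unadjusted p under 0.05 in edgeR.

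Among 20 genes of lipases and lipid droplet proteins 10 fell and 2 rose (median log2FC -1.04). The lipase gene Pnpla3 was at 276, 338 and 272 CPM in TC and at 61.1, 61.8 and 50.3 CPM in TC+SR-3420. All TC samples were above all TC+SR-3420 samples, with a log2FC of -2.35 (SE 0.20, adjusted p = 4.604e-06 in edgeR). The 2 raised genes of this list were Plin2, which coats lipid droplets, and Hilpda, which inhibits ATGL. Plin2 was at 665, 829 and 665 CPM in TC and at 1826.5, 1779.9 and 1460.3 CPM in TC+SR-3420, and Hilpda at 22.9, 29.7 and 27.3 CPM and at 110, 107 and 102 CPM. The droplet coat gene Plin1, by contrast, fell by 1.48 on the log2 scale, and the carboxylesterase gene Ces1d and the droplet gene Fitm2 had log2FC of -1.88 and -1.63. Of 37 adipocyte factor and adipokine genes 13 fell and 1 rose (median log2FC -0.82), among them Cfd and Adipoq, which encode the secreted proteins adipsin and adiponectin, with log2FC of -2.13 and -1.68, and Retn, which encodes resistin, with -1.76. Of 20 genes of fatty acid synthesis 7 fell and 0 rose (median log2FC -0.75). Scd1, the stearoyl-CoA desaturase gene, was at 34587, 32503 and 35360 CPM in TC and at 11434, 10926 and 13622 CPM in TC+SR-3420, and took the largest share of counts in each sample. The citrate carrier gene Slc25a1 (-1.31) and the lipogenic gene Thrsp (-1.38) fell too. Cholesterol synthesis had 5 fallen of 26 (19.2%) and 0 risen (median log2FC -0.71), the enzyme genes Dhcr7 (-1.46), Mvd (-1.39) and Pmvk (-1.17) and Tm7sf2, which overlaps another gene (-1.54), among them. In both synthesis lists DESeq2 called 0 raised genes, and 0 were higher at an unadjusted p under 0.05 in edgeR.

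The PPAR target genes did not move in one direction. Of 36 tested, 4 rose (Fgf21, Hilpda, Plin2 and Pdk4) and 9 fell, with a median log2FC of -0.54 (-0.63 over the 35 with a GC content, and -0.35 over these with trends over length and GC content removed). Ehhadh, a peroxisomal β-oxidation gene, was among the fallen with -1.83. The median of the same 36 genes was 0.51 for SR-3420 without inhibitor and 0.12 under etomoxir. For 8 of the 36 the response was more negative under triacsin C than without inhibitor by the test of the difference in edgeR, against 1.27% of all genes tested. That count was 12 with DESeq2 and lay between 1 and 3 when any 1 of the 10 samples was left out. Pdk4, which shuts down pyruvate dehydrogenase, was at 236, 219 and 227 CPM in TC and at 501, 484 and 570 CPM in TC+SR-3420. The groups did not overlap, with a log2FC of 1.19 (SE 0.17, adjusted p = 0.000124 in edgeR). Cyp26b1, a retinoic acid hydroxylase gene, had a log2FC of 0.74 (SE 0.19) and did not reach the fold threshold. The list of long-chain acyl-CoA synthetases holds the fatty acid transport proteins (Slc27a genes) and the Acsbg genes besides the Acsl genes. Of the 8 tested 1 rose (Acsbg1, log2FC 1.30) and 1 fell (Slc27a1, log2FC -1.18), and neither is an Acsl gene. The fall of Slc27a1 did not reach the threshold without TC replicate 2 (log2FC -1.04, adjusted p = 0.05298 in edgeR) or without TC+SR-3420 replicate 3 (log2FC -1.01, adjusted p = 0.0574 in edgeR).

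Of 25 targets of hypoxia-inducible factor 7 rose (28.0%) and 1 fell (median log2FC 0.42), the glucose transporter gene Slc2a1 with a log2FC of 1.87 and the stress gene Ndrg1 with 1.92. Car9, a carbonic anhydrase gene at only 0.276 CPM in TC, had 2.45. Of 24 core clock genes 4 rose and 1 fell (median log2FC 0.62), among them the activator genes Rora, Rorb and Arntl and the repressor gene Ciart with log2FC of 1.55, 1.57, 1.09 and 1.39. The log2FC of Arntl was 0.95 without TC+SR-3420 replicate 3, under the fold threshold. With trends over length and GC content removed Rora (0.59), Rorb (0.82) and Arntl (0.64) missed that threshold, and Ciart could not be tested. Of 29 NRF2 targets 3 rose and 7 fell (median log2FC -0.46, or -0.13 with trends over length and GC content removed). The risen ones include Slc7a11 (3.25) and Sqstm1 (1.11), which are also in the list of ATF4 targets. The fallen ones include the glutathione transferase genes Gsta3 (-2.40) and Gstm1 (-1.60), of a family whose members may share reads, and the carbonyl reductase gene Cbr3 (-1.56). Of 27 insulin signalling and FOXO genes 0 rose and 0 fell by the fold threshold in edgeR, 1 and 0 in DESeq2, and 6 were higher and 8 lower at an unadjusted p under 0.05, near the 22.2% and 24.3% of all genes tested. Their median log2FC of -0.21 became -0.03 and -0.02 without TC replicates 2 and 3, and -0.11 and -0.06 without TC+SR-3420 replicates 2 and 3. Of 33 histone genes 7 fell (21.2%) and 0 rose in edgeR and in DESeq2, with 0 higher at an unadjusted p under 0.05 (median log2FC -0.73, or -0.22 with the trends removed). Hist1h2be and Hist1h4h, whose near-identical copies make their counts uncertain, had -1.89 and -1.74.

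In further lists of lipid metabolism and in that of thermogenic genes the share of lowered genes lay between 8.70% and 41.7%, against 9.57% of all genes tested. Of 10 acyl-CoA thioesterases 4 fell (40.0%; median log2FC -0.69, or -0.31 with trends over length and GC content removed and -0.25 over genes with at least 10 counts in every sample). They were the related genes Acot1 (-1.31), Acot4 (-2.34), Acot6 (-2.12) and Acot3 (-3.30), which may share reads, and Acot3 rests on 41 counts in TC and 4 in TC+SR-3420. Of 16 triglyceride synthesis genes 3 fell (18.75%), Agpat2 (-1.57), Gpd1 (-1.60) and Gpam (-1.12), and 1 rose, Agpat4 (1.25), with a median of -0.63. These encode acyltransferases except Gpd1, a glycerol phosphate dehydrogenase. Of 12 LXR target and oxysterol genes 5 fell (41.7%) and 1, Ch25h, rose (median -0.60). The apolipoprotein gene Apoe (-2.04), the ubiquitin ligase gene Mylip (-1.49) and the sterol hydroxylase gene Cyp27a1 (-1.38) were among those that fell. Of 23 thermogenic genes 2 fell (8.70%, near the 9.57% of all genes tested), Cox8b and Ppara, and 0 rose. At an adjusted p under 0.05 at any size 8 were lower and 2 higher in edgeR, against 19.7% and 17.3% of all genes tested. The median over the 23 was -0.49, or -0.27 without TC replicate 2 and -0.29 with the trends removed. The nuclear receptor gene Ppara had a log2FC of -1.03, and of -0.91 without TC+SR-3420 replicate 1, under the fold threshold.

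Among regulators, of 32 nuclear receptor genes 4 rose (12.5%), Nr4a1 (1.84) among them, and 3 fell (9.38%), the retinoid receptor gene Rxrg (-1.37) among them. Their median log2FC of 0.16 became 0.11 without TC replicate 3, 0.10 without TC+SR-3420 replicate 2 and -0.01 over genes with at least 10 counts in every sample. Of 47 TGF-beta, BMP and WNT genes 2 rose (4.26%) and 4 fell (8.51%), near the 5.24% and 9.57% of all genes tested, with the ligand gene Tgfb1 at 1.09 and the WNT receptor gene Fzd4 at -1.76. At an adjusted p under 0.05 at any size 12 were higher and 6 lower. The median of 0.20 became 0.06 and 0.09 without replicate 1 of TC and of TC+SR-3420, and 0.04 with trends over length and GC content removed. Of 20 p53 target genes 3 rose (15%), the kinase gene Plk2 (1.82), Plk3, which overlaps another gene (1.41), and the growth arrest gene Btg2 (1.48), and 2 fell (10.0%; median -0.33). Of 14 BCL2 family genes 1 rose (7.14%), Pmaip1 (2.09, from 0.672 CPM in TC), and the median of -0.12 turned to 0.04 without TC replicate 2, 0.01 without TC+SR-3420 replicate 3 and 0.24 with the trends removed. Of 294 zinc finger genes, taken by a symbol of Zfp and a number whatever the class of finger, 5 rose (1.70%) and 20 fell (6.80%), Zfp418 (-1.96), Zfp78 (-1.90) and Zfp3 (-1.88) among the latter. At an adjusted p under 0.05 at any size 21 were higher and 43 lower, which are also smaller shares than the 17.3% and 19.7% of all genes tested. Their median of -0.14 became -0.24 and -0.09 without TC replicates 2 and 3, and -0.04 and -0.30 without TC+SR-3420 replicates 2 and 3.

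Among housekeeping lists, of 25 glycolysis genes 3 rose (12%), the hexokinase gene Hk2 (1.22) and the lactate carrier gene Slc16a3 (1.48) among them. The median log2FC was -0.04, lay between -0.10 and 0.01 with 1 sample left out, above 0 without TC+SR-3420 replicate 3, and was -0.08 over the 24 with a GC content and 0.25 over these with trends over length and GC content removed. Of 34 collagen genes 3 rose (8.82%), Col4a6 (1.08) among them (median 0.51, or 0.24 with the trends removed). In that setting Col4a6 (0.51) and Col12a1 (0.52) missed the fold threshold, and Col11a1 (0.47, adjusted p = 0.1455 in edgeR) missed both thresholds. At an adjusted p under 0.05 at any size 12 of the 34 were higher and 2 lower, against 17.3% and 19.7% of all genes tested. Of 48 cell cycle and DNA replication genes 1 rose (2.08%; median 0.47), and of 60 ribosome biogenesis genes 2 rose (3.33%; median 0.39). At an adjusted p under 0.05 at any size, however, 16 of the 48 were higher and 2 lower, and 21 of the 60 higher and 0 lower, against 17.3% and 19.7% of all genes tested, and 46 and 52 had a log2FC above 0. Of the ribosome biogenesis genes 28 were higher and 0 lower at an unadjusted p under 0.05. Of 39 autophagy and lysosomal genes 3 rose (7.69%), among them Uvrag and the autophagy receptor gene Sqstm1 (1.11), and 1 fell. Their median of 0.09 became 0.0008, 0.03 and 0.05 without TC replicates 1, 2 and 3, 0.15 and 0.03 without TC+SR-3420 replicates 2 and 3, and 0.02 with the trends removed. Of 38 proteasome subunits 2 fell (5.26%), among them Psmb11, which rests on 32 counts in TC and 4 in TC+SR-3420 (-2.94), and the median of -0.21 turned to 0.05 with the trends removed. The median of the macrophage markers turned from -0.39 to 0.10 in that setting, and was -0.86 over genes with at least 10 counts in every sample.

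Of the 154 called genes named here, 26 lost their call when some 1 sample was left out, 14 of them by the adjusted p of edgeR and 12 by the fold threshold alone, Slc27a1, Arntl and Ppara among them. None of the 26 changed direction in those fits. The epidermal growth factor family gene Btc (log2FC 1.497) had adjusted p of 0.065, 0.1103, 0.07221 and 0.1769 without TC replicates 1, 2 and 3 or TC+SR-3420 replicate 3, and the cytokine gene Csf2 (log2FC 2.92) 0.08205, 0.1018 and 0.05159 without TC replicates 1 and 3 or TC+SR-3420 replicate 1. The WNT receptor gene Fzd8 (log2FC -1.04) had adjusted p of 0.07711, 0.1465, 0.1211 and 0.1279 without TC replicates 1 and 2 or TC+SR-3420 replicates 2 and 3, and the histone gene Hist1h1a (log2FC -1.59) 0.06427 and 0.06845 without TC replicate 3 or TC+SR-3420 replicate 1. The histone gene Hist1h2af (log2FC -1.88) had adjusted p of 0.07546, 0.06582, 0.07509, 0.06446 and 0.08608 without TC replicates 1, 2 and 3 or TC+SR-3420 replicates 1 and 3, and the KLF factor gene Klf1 (log2FC -1.58) 0.06289, 0.0572 and 0.07533 without TC replicate 2 or TC+SR-3420 replicates 2 and 3. Klf1 is known as a factor of red cell development, and Hist1h1a and Hist1h2af encode a linker and a core histone. The ribosome biogenesis gene Nop58 (log2FC 1.08) had adjusted p of 0.0726 and 0.08988 without TC replicate 2 or TC+SR-3420 replicate 3, and the proteasome subunit gene Psmb10 (log2FC -1.09) 0.08525 and 0.06834 without TC replicate 2 or TC+SR-3420 replicate 3. The ligand gene Tgfb2 (log2FC 1.09) had adjusted p of 0.05639, 0.1013 and 0.1126 without TC replicates 1 and 2 or TC+SR-3420 replicate 3, and the p53 target gene Trp53inp1 (log2FC -1.32) 0.08617, 0.0508, 0.09674, 0.1198 and 0.136 without TC replicates 1, 2 and 3 or TC+SR-3420 replicates 1 and 2. TC replicate 2 and TC+SR-3420 replicate 3 recur among the samples without which these calls ended. The respiratory chain subunit gene Uqcr11 (log2FC -1.38) had adjusted p of 0.104, 0.05099 and 0.0771 without TC replicate 2 or TC+SR-3420 replicates 2 and 3, and the mitochondrial valyl-tRNA synthetase gene Vars2 (log2FC -1.02) 0.05957 and 0.06309 without TC replicate 2 or TC+SR-3420 replicate 3. The zinc finger gene Zfp52 (log2FC 2.06) had adjusted p of 0.06982, 0.1068 and 0.1105 without TC replicates 1 and 2 or TC+SR-3420 replicate 3. Csf2 had 0, 3 and 0 counts in TC and 9, 7 and 9 in TC+SR-3420, a ratio of 8.11 after scaling for depth (exact 95% binomial interval 2.48 to 42, for counting error only). Hist1h2af had 10, 13 and 13 counts in TC and 5, 5 and 0 in TC+SR-3420.

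For the genes that missed the fold threshold the adjusted p stayed under 0.05. The collagen gene Col11a1 (1.14) had log2FC of 0.9995 and 0.99 without TC replicate 2 or TC+SR-3420 replicate 3, and the collagen gene Col12a1 (1.01) 0.84, 0.98 and 0.93 without TC replicates 2 and 3 or TC+SR-3420 replicate 1. The lysosomal protease gene Ctsd (-1.03) had log2FC of -0.96 and -0.94 without TC replicate 2 or TC+SR-3420 replicate 3, and the ribosome biogenesis gene Ddx10 (1.09) 0.90 without TC+SR-3420 replicate 3. The mitochondrial glutamyl-tRNA synthetase gene Ears2 (-1.02) had log2FC of -0.96 and -0.96 without TC+SR-3420 replicates 2 and 3, and the transcription factor gene Mitf (1.14) 0.92 without TC+SR-3420 replicate 3. Mitochondrial ribosomal proteins translate the few proteins encoded by mitochondrial DNA, and ribonucleotide reductase supplies the precursors of DNA. The mitochondrial ribosomal gene Mrpl36 (-1.10) had log2FC of -0.99 without TC replicate 2, and the mitochondrial ribosomal gene Mrps35 (-1.01) -0.99, -0.99 and -0.95 without TC replicate 2 or TC+SR-3420 replicates 1 and 3. The ribosomal gene Rpl23a (-1.13) had log2FC of -0.98 without TC+SR-3420 replicate 1, and the ribonucleotide reductase gene Rrm2 (1.0995) 0.98 and 0.90 without TC replicate 2 or TC+SR-3420 replicate 3.

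**Figure D3:**
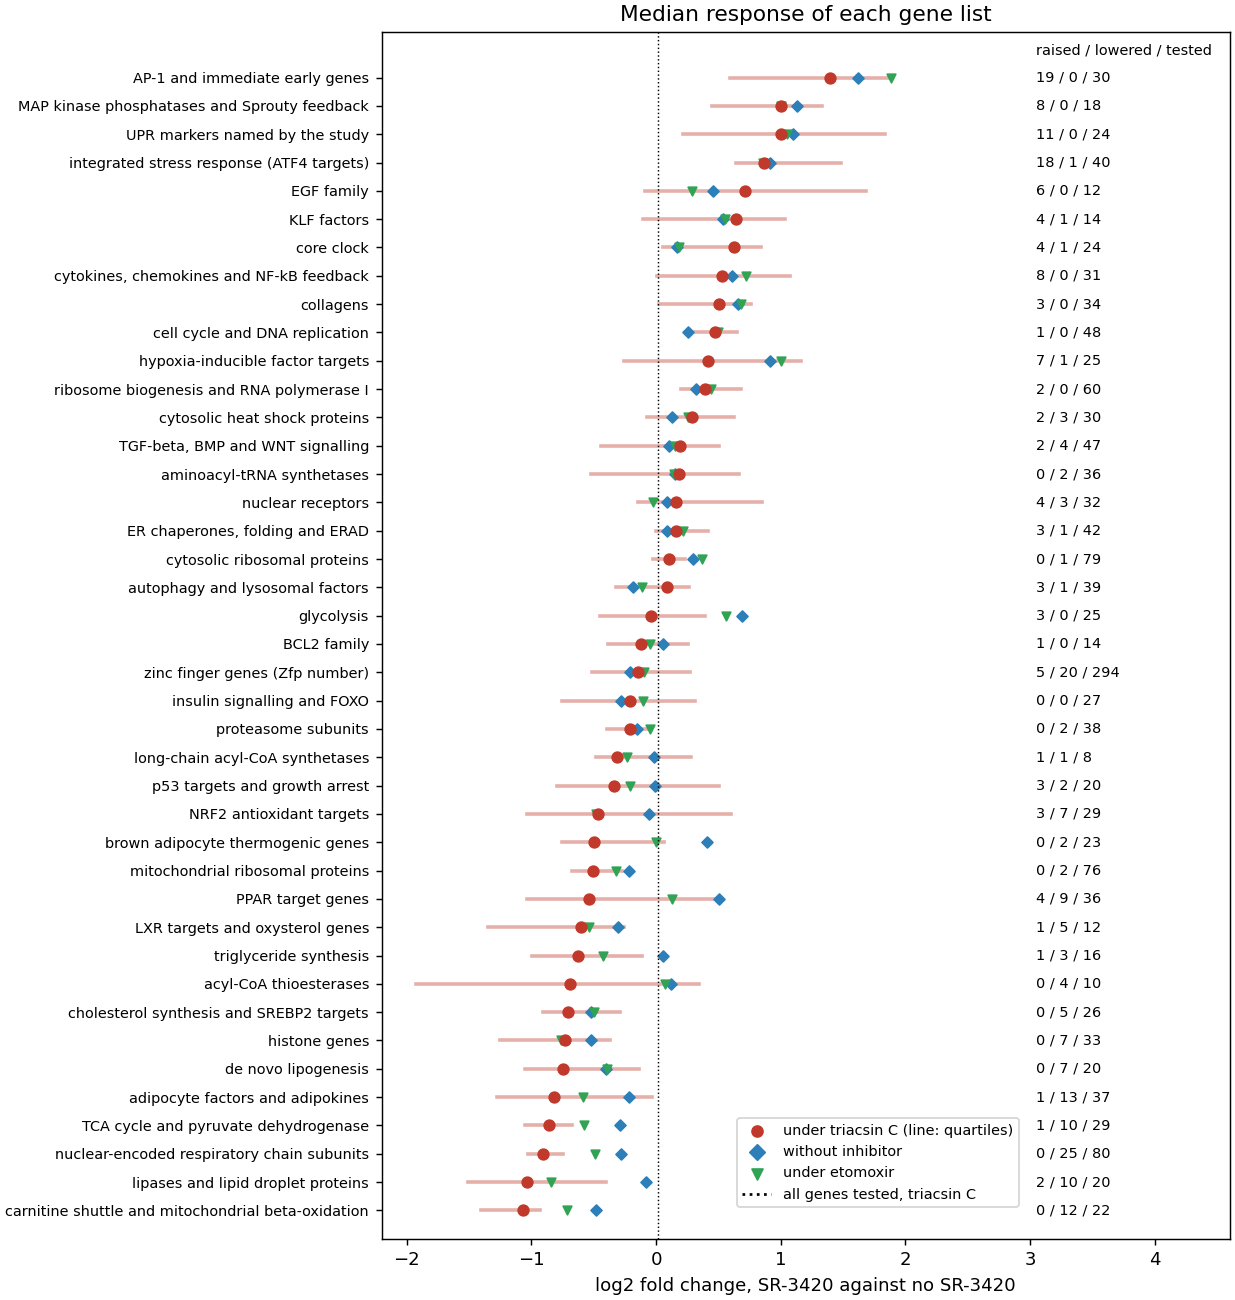
Median log2 fold change of each gene list for SR-3420 under triacsin C (red, with quartiles), without inhibitor (blue) and under etomoxir (green), with the numbers of raised, lowered and tested genes under triacsin C at the right. The list of β-oxidation genes lies at -1.06 and that of AP-1 and immediate early genes at 1.40 under triacsin C, against 0.02 for all genes tested.

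The length of a gene went with its change. Raised genes spanned a median of 72596 bases from start to end of the locus and lowered genes 10086 bases, against 21740.5 for all genes tested. In 5 bins of equal size by locus length, the median log2FC ran through -0.40, -0.22, -0.10, 0.17 and 0.57 from the shortest to the longest. Of the 2558 genes with the shortest loci 84 rose and 481 fell, and of the 2557 with the longest 351 rose and 47 fell. Each TC+SR-3420 sample showed this against the mean of TC, with medians of -0.319, -0.344 and -0.491 for the shortest bin and 0.457, 0.491 and 0.593 for the longest in replicates 1, 2 and 3. The same bins had medians of 0.04 and 0.00 at the shortest and longest for SR-3420 without inhibitor and of -0.10 and 0.10 under etomoxir.

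The samples were also set beside the mean of vehicle. The shortest bin was above vehicle by a median log2 difference of 0.32 in TC and below it by -0.04 in TC+SR-3420, and the longest was at -0.42 in TC and 0.05 in TC+SR-3420. The 3 TC samples lay at 0.267, 0.429 and 0.264 for the shortest bin and at -0.359, -0.521 and -0.388 for the longest, while the TC+SR-3420 samples lay at 0.004, -0.007 and -0.132 and at -0.034, 0.003 and 0.146. The vehicle samples themselves lay at 0.147 and -0.147 for the shortest bin and at -0.048 and 0.048 for the longest, and the SR-3420 samples at 0.122 and -0.05 and at -0.072 and 0.069. The ETO samples lay at 0.129, -0.002 and -0.279 and at -0.059, -0.003 and 0.114, and the ETO+SR-3420 samples at 0.017, -0.133 and -0.237 and at 0.02, 0.158 and 0.227. The TC samples were thus above all others in the shortest bin and below all others in the longest, while ETO replicate 3 lay about as far below vehicle in the shortest bin as 2 of the TC samples lay above it. TC enters both differences, and no test was made of them. For raised genes the median difference from vehicle was 0.02 in TC and 1.21 in TC+SR-3420, and 149 of the 670 (22.2%) were nearer to vehicle in TC+SR-3420 than in TC. For lowered genes the medians were 0.31 in TC and -0.92 in TC+SR-3420, and 357 of the 1223 (29.2%) were nearer to vehicle in TC+SR-3420.

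Base composition moved with the samples as well. In 5 bins by GC content of the transcript, TC+SR-3420 replicates 1, 2 and 3 ran from -0.002, 0.135 and 0.674 in the bin with the least GC to -0.046, -0.139 and -0.501 in the bin with the most, as medians against the mean of TC. The samples of TC themselves ran from 0.081, -0.228 and 0.139 to -0.062, 0.197 and -0.138. TC replicate 2 thus ran the opposite way from TC replicates 1 and 3. Set against their own mean, these samples could hardly all run one way. The median GC content was 48.4% for raised genes, 53.6% for lowered genes and 50.8% for all. With trends over length and GC content removed from every sample, a setting chosen after the data were seen, 559 genes rose and 852 fell. Only the 11959 genes with a GC content could be tested so, among them 643 of the 670 raised and 1126 of the 1223 lowered genes. Tested alone without removing trends, these genes gave calls for 623 of the 670 and 1126 of the 1223. With the trends removed 329 and 727 of them were called. The median over all genes was 0.05 in that setting. The medians of 5 lists were 1.79 for AP-1 and immediate early genes, 1.24 for ATF4 targets, -1.02 for β-oxidation, -0.99 for lipases and lipid droplet proteins and -0.54 for the respiratory chain. Of the 154 called genes named, 150 could be tested in that setting and 33 of these did not pass both thresholds there, whereas 0 of the 150 lost the call when the genes with a GC content were tested without removing trends. Ciart, Ffar4, Gm13889 and Hilpda have no GC content here and were not tested. Those that missed the fold threshold alone were, with their log2FC there, the raised genes Arntl (0.64), Atf6 (0.90), Col12a1 (0.52), Col4a6 (0.51), Ddx10 (0.43), Ern1 (0.88), Ralgps1 (0.59), Rora (0.59), Rorb (0.82), Uvrag (0.64) and Zfhx4 (0.97), and the lowered genes Acot1 (-0.90), Cd68 (-0.76), Ctsd (-0.68), Des (-0.90), Ears2 (-0.79), Fzd8 (-0.67), Mrpl36 (-0.60), Mrps35 (-0.73), Ndufv3 (-0.89), Pmvk (-0.73), Psmb10 (-0.58), Rpl23a (-0.70), Slc25a1 (-0.86), Slc27a1 (-0.93), Thrsp (-0.87), Uqcr11 (-0.84) and Vars2 (-0.79). The adjusted p was 0.05 or more in edgeR for Col11a1 (0.1455), Hist1h1a (0.09479), Hist1h2af (0.1027), Mitf (0.0606) and Tgfb2 (0.05178). The part of length and GC content in single genes was not tested.

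**Figure D4:**
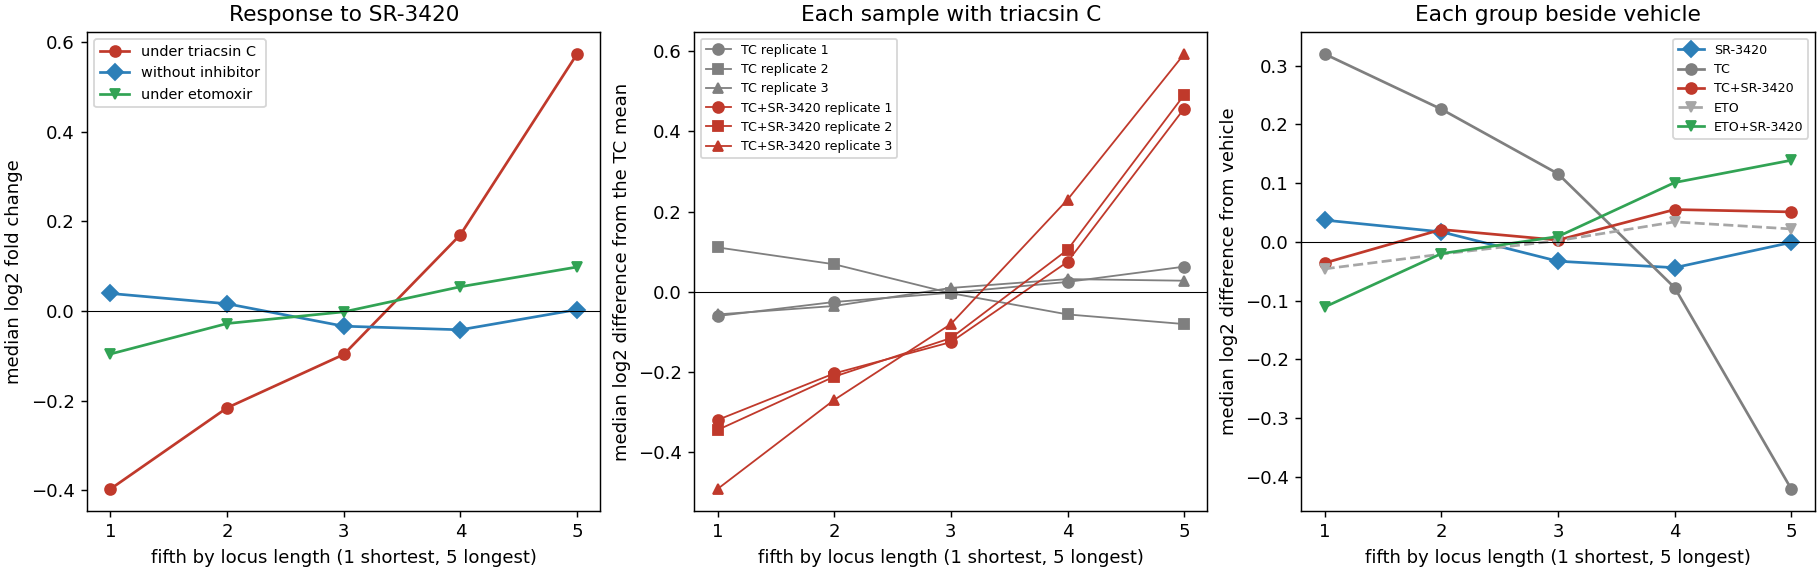
Median log2 values of genes in 5 bins by locus length, for the response to SR-3420 in each arm (left), for each of the 6 triacsin C samples against the mean of TC (middle) and for each group against vehicle (right). TC lies at 0.32 in the shortest and -0.42 in the longest bin beside vehicle, and TC+SR-3420 at -0.04 and 0.05.

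Whether triacsin C changed the response was tested gene by gene as the difference between responses. Ffar4, a receptor for long-chain fatty acids, fell under triacsin C, from 59.4, 87.3 and 70.3 CPM in TC to 15.6, 13.6 and 13.6 CPM in TC+SR-3420, and rose without inhibitor, from a mean of 38.2 CPM in vehicle to 119 CPM in SR-3420. Its log2FC was -2.34 under triacsin C and 1.65 without inhibitor, a difference of -3.99 (adjusted p = 0.0024 in edgeR). Atf6 had log2FC of 1.57 under triacsin C, 0.64 without inhibitor (adjusted p = 0.01048 in edgeR) and 0.70 under etomoxir (adjusted p = 0.0005013 in edgeR). Its response was larger by 0.93 under triacsin C than without inhibitor (adjusted p = 0.0142 in edgeR) and by 0.87 than under etomoxir (adjusted p = 0.00988 in edgeR). The former difference had adjusted p of 0.09597 without vehicle replicate 3 and 0.07735 without SR-3420 replicate 1, and with trends over length and GC content removed the differences were 0.24 (adjusted p = 0.4096) and 0.35 (adjusted p = 0.2089). Its mean was 93.4 CPM in vehicle, 61.1 CPM in TC and 182 CPM in TC+SR-3420, so that both a lower start and a higher end enter its log2FC.

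SR-3420 raised 299 genes (2.34%) and lowered 131 (1.02%) without inhibitor, and raised 556 (4.35%) and lowered 580 (4.54%) under etomoxir. Of the 670 genes raised under triacsin C, 207 rose without inhibitor and 320 under etomoxir, with median log2FC of 0.76 and 1.04 in these arms. Of the 1223 lowered genes, 74 fell without inhibitor and 395 under etomoxir, with medians of -0.51 and -0.88. These genes were chosen for passing the fold threshold under triacsin C, so the choice itself bounds their medians there (1.29 and -1.43), and the medians of the arms are not compared. The groups without inhibitor have 2 samples each, and a gene called in 1 arm only is not thereby shown to differ. By the test of the difference, the response under triacsin C was more positive than without inhibitor for 158 genes (1.24%) and more negative for 163 (1.27%). Against etomoxir it was more positive for 194 genes (1.52%) and more negative for 99 (0.774%). With DESeq2 these 4 counts were 445, 387, 454 and 228, and with no filter on low counts the first 2 and the last were 88, 75 and 59. A GC content was known for 149 of the 158, 154 of the 163, 188 of the 194 and 95 of the 99. In tests of the genes with a GC content alone 145, 154, 187 and 95 of them were called, and with trends over length and GC content removed as well 46, 97, 73 and 71. The 4 counts also rest on few samples. Against no inhibitor, leaving out any of the 10 samples moved both by over 1.5 times. The first became 63 and 25 without vehicle replicates 2 and 3, 20 and 67 without SR-3420 replicates 1 and 3, 90, 72 and 73 without TC replicates 1, 2 and 3, and 91, 94 and 86 without TC+SR-3420 replicates 1, 2 and 3. The second became 75 and 28, 35 and 106, 83, 68 and 71, and 88, 70 and 74 in the same order. Against etomoxir the first count moved by over 1.5 times without TC replicates 2 and 3 (94 and 92), TC+SR-3420 replicates 1 and 3 (100 and 128), ETO replicates 1 and 2 (128 and 100) or ETO+SR-3420 replicates 1 and 2 (128 and 112). For the second count they were TC replicates 1, 2 and 3 (63, 51 and 54), TC+SR-3420 replicates 1, 2 and 3 (62, 60 and 64), ETO replicate 2 (56) and ETO+SR-3420 replicate 1 (63).

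Several of the largest differences lay in TC without SR-3420. Pmp2 had means of 0.340 CPM in vehicle, 0.648 CPM in SR-3420, 58.8 CPM in TC, 1.30 CPM in TC+SR-3420, 0.804 CPM in ETO and 0.558 CPM in ETO+SR-3420. It was high in the 3 TC samples alone, and the difference of responses was -6.45 against no inhibitor (adjusted p = 0.000406 in edgeR) and -4.89 against etomoxir (adjusted p = 0.000297 in edgeR). Ppp1r3c had means of 29.7 CPM in vehicle, 27.6 CPM in SR-3420, 87.5 CPM in TC and 8.08 CPM in TC+SR-3420, and here TC was above and TC+SR-3420 below vehicle. Tmem79 stood at 8.06 CPM in vehicle, 39.9 CPM in TC and 6.06 CPM in TC+SR-3420. Esr1, the oestrogen receptor gene, had means of 31.5 CPM in vehicle, 16.1 CPM in SR-3420, 5.16 CPM in TC and 10.3 CPM in TC+SR-3420. Its TC and TC+SR-3420 samples were both below vehicle, and its log2FC of 0.99 under triacsin C, short of the fold threshold, was 1.96 above that without inhibitor. With trends over length and GC content removed its log2FC was 0.18 (adjusted p = 0.4864 in edgeR), and the difference from no inhibitor had an adjusted p of 0.06173 without SR-3420 replicate 1. Uvrag, an autophagy gene, had means of 42.2 CPM in vehicle, 26.6 CPM in TC and 59.0 CPM in TC+SR-3420, and Zfhx4, a homeobox factor gene, means of 87.0, 33.98 and 105 CPM. For Egln3, a prolyl hydroxylase that marks hypoxia-inducible factor, SR-3420 and TC+SR-3420 were further apart than vehicle and TC. It had means of 52.7 CPM in vehicle and 289 CPM in SR-3420 but 102 CPM in TC and 72.3 CPM in TC+SR-3420. Its difference from no inhibitor was -2.96 (adjusted p = 0.00317 in edgeR).

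The other genes with the largest differences had a lower mean in TC than in vehicle or moved against the response without inhibitor. Bmf, a BCL2 family gene that promotes cell death, had means of 21.5 CPM in vehicle, 1.96 CPM in SR-3420, 4.88 CPM in TC and 2.60 CPM in TC+SR-3420. Its log2FC was -3.44 without inhibitor and -0.90 under triacsin C, a difference of 2.54 (adjusted p = 0.006687 in edgeR). The response under triacsin C had adjusted p of 0.05863 and 0.05006 without TC+SR-3420 replicates 2 and 3. Ptgfr, a prostaglandin receptor gene, had means of 22.2 CPM in vehicle, 5.11 CPM in SR-3420, 5.20 CPM in TC and 4.91 CPM in TC+SR-3420. The log2FC was -2.11 without inhibitor and -0.08 under triacsin C (0.03 without TC replicate 3 and 0.04 without TC+SR-3420 replicate 2). The difference of 2.04 (adjusted p = 0.009771 in edgeR) had adjusted p of 0.06227 without vehicle replicate 3 and 0.06644 without SR-3420 replicate 1. Ralgps1 and 8430408G22Rik each overlap another gene and are uncertain. Ralgps1 rose under triacsin C (log2FC 1.27), fell without inhibitor (-1.05) and under etomoxir (-1.37), and differed by 2.32 (adjusted p = 0.003171 in edgeR) and 2.64 (adjusted p = 0.0006386 in edgeR). 8430408G22Rik rose under triacsin C (log2FC 1.78) and differed from its response under etomoxir by 2.17 (adjusted p = 0.01416 in edgeR).

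Sntb1, a syntrophin gene, had means of 22.95 CPM in ETO and 7.91 CPM in ETO+SR-3420 but 3.22 CPM in TC and 5.29 CPM in TC+SR-3420, a difference of 2.24 from etomoxir (adjusted p = 0.002545 in edgeR). Its log2FC of 0.71 under triacsin C was short of the fold threshold. That response had adjusted p of 0.08733, 0.08224 and 0.05635 without TC replicate 1 or TC+SR-3420 replicates 1 and 2, and 0.3944 with trends over length and GC content removed. Trp63, a transcription factor gene of the p53 family, had means of 21.8 CPM in ETO, 6.90 CPM in ETO+SR-3420, 4.63 CPM in TC and 5.73 CPM in TC+SR-3420. The difference of 1.94 (adjusted p = 0.02575 in edgeR) had adjusted p of 0.0771 without TC replicate 3, 0.06576 without TC+SR-3420 replicate 1, 0.0515 and 0.05576 without ETO replicates 2 and 3, and 0.05295 and 0.06344 without ETO+SR-3420 replicates 1 and 2. Its log2FC under triacsin C was 0.29, and -0.48 with trends over length and GC content removed. Tmem82 and Slc25a34, a gene of the mitochondrial carrier family, fell under triacsin C and rose without inhibitor. Tmem82 had means of 1.55 CPM in vehicle, 7.82 CPM in SR-3420, 9.502 CPM in TC and 2.46 CPM in TC+SR-3420, a difference of -4.25 (adjusted p = 0.002306 in edgeR). Slc25a34 had means of 13.9, 56.6, 29.1 and 11.2 CPM in these groups, a difference of -3.40 (adjusted p = 0.004766 in edgeR).

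**Figure D5:**
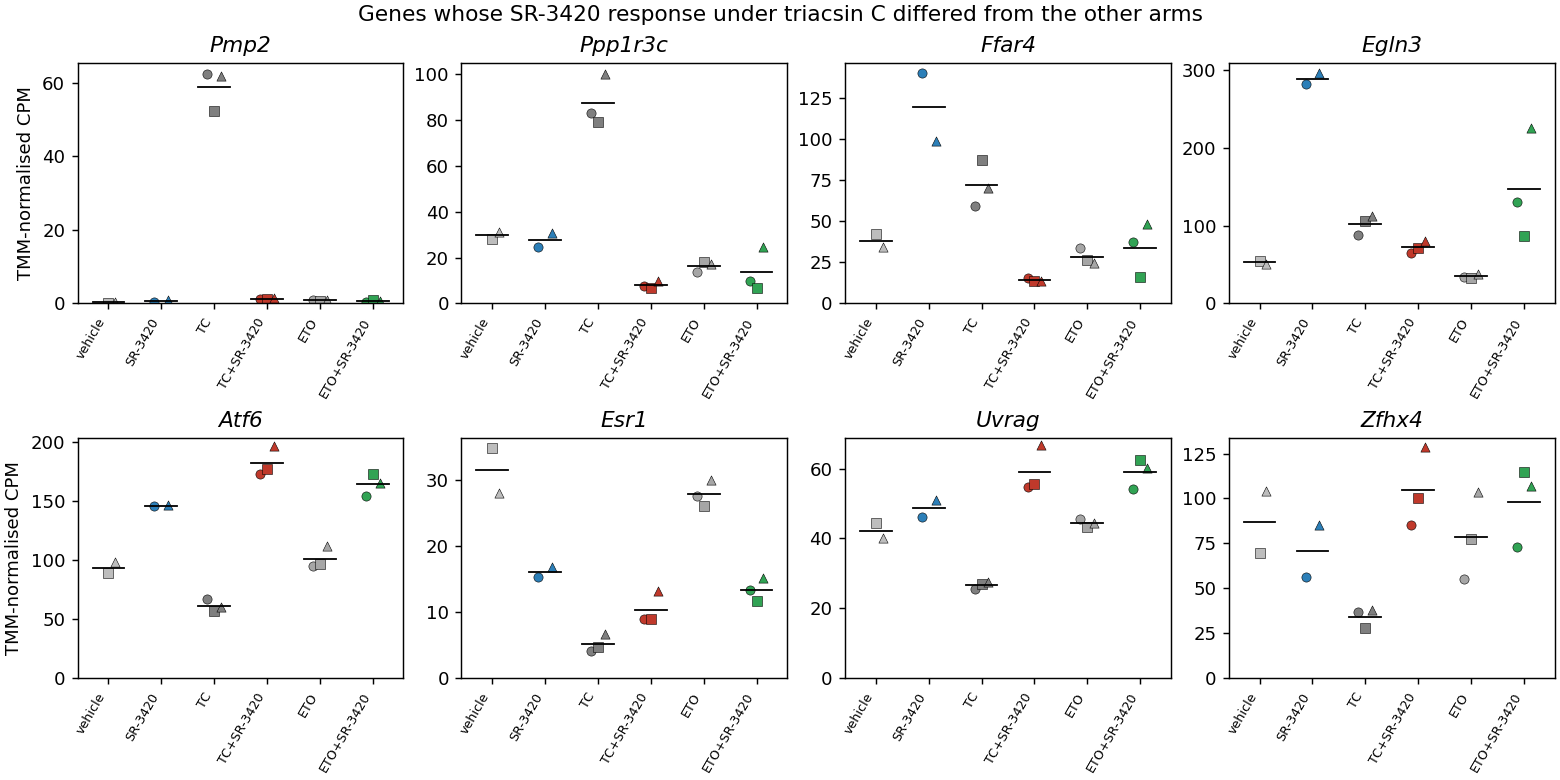
TMM-normalised CPM of 8 genes in every sample of the 6 groups (marker shape gives the replicate, the line the group mean). Pmp2 is at a mean of 58.8 in TC and at or below 1.30 in the other groups.

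Among stress genes, the response of Atf3 was smaller under triacsin C than in the other arms, by -1.45 against no inhibitor (adjusted p = 0.00494 in edgeR) and -1.15 against etomoxir (adjusted p = 0.0079 in edgeR). Its mean level was nonetheless higher with triacsin C, at 86.2 CPM in TC and 396 CPM in TC+SR-3420, than in vehicle at 14.1 CPM and SR-3420 at 176 CPM. Fgf21, a secreted metabolic hormone gene, went from 2.88 to 12.7 CPM under triacsin C and from 0.715 to 9.55 CPM without inhibitor, a difference of responses of -1.57 (adjusted p = 0.014 in edgeR). That difference had adjusted p of 0.1148 without vehicle replicate 3, 0.06944 without SR-3420 replicate 1 and 0.1661 with trends over length and GC content removed. For the β-oxidation gene Cpt2 the fall was deeper under triacsin C than without inhibitor by -1.37 (adjusted p = 0.0079 in edgeR, or 0.06203 without vehicle replicate 3), and 5 of the 22 genes of its list had such a difference, against 1.27% of all genes tested. That count was 7 with DESeq2 and lay between 0 and 3 when any 1 of the 10 samples was left out. By contrast, the responses of Areg were 4.82, 4.81 and 4.80 under triacsin C, without inhibitor and under etomoxir, with a difference of 0.01 from no inhibitor (adjusted p = 0.993 in edgeR), which does not show that they are equal.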

How the data were processed

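RNA-seq counts of 16 samples in 6 groups were analysed. The authors aligned reads with STAR 2.4.2a to mm9, used HOMER to allow 1 read of a given length at a position, obtained gene counts through iRNA-seq and deposited whole-number counts for 20295 genes without normalization. Use of strand in counting is not given in the sources used here, so the 1511 genes tested that overlap another gene are uncertain. From the counts, edgeR 4.0.16 in R 4.3.3 gave log2 fold changes, quasi-likelihood p-values and standard errors (the log2 fold change over the root of F) after TMM normalization and filterByExpr, in 1 model of 6 groups with no covariate, with Benjamini-Hochberg adjustment over 12786 genes. The edgeR fit of TC+SR-3420 against TC was tested on simulated data. Total counts of the 6 samples with triacsin C lay between 9452861 and 16265789. Length bins used the deposited locus length, with an offset of 0.5 CPM before logs.

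Genes were named by rule: the 12 largest changes in each direction with a mean of at least 5 CPM and no overlap of groups, up to 4 called members of each list by size, the up to 5 largest differences between responses in each direction, and genes the study shows. Fabp4, Ucp1, Pparg, Prdm16, Col1a1, the printed promoters and the genes plotted over all groups were singled out after their values were seen. Replicate 1 of vehicle and replicate 2 of SR-3420 were not analysed here. The members and lists were chosen with earlier results of these data known. Alternatives were DESeq2 1.42.0, other scalings and filters, the replicate number as a block and leaving out each sample. Figures were drawn with matplotlib 3.10.9.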

Additional observations from a re-analysis of the deposited data

Results flagged for a closer look

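Prdm16 aside, 164 genes were named. For 40 of them the response to SR-3420 under triacsin C differed from that in another arm by edgeR's test of the difference. Against the response without inhibitor, the 35 differences in log2FC were those of 2010003K11Rik (-2.43), Acot4 (-2.53), Atf3 (-1.45), Atf6 (0.93), Bmf (2.54), Cd68 (-1.98), Cpt2 (-1.37), Eci1 (-1.33), Egln3 (-2.96), Esr1 (1.96), Ffar4 (-3.99), Fgf21 (-1.57), Fitm2 (-1.47), Fzd4 (-1.48), Gpd1 (-1.33), Gzmm (-2.12), Hspa1l (-1.17), Ndufv3 (-0.96), Pdk4 (-1.07), Pdp2 (-1.18), Pmp2 (-6.45), Ppara (-1.47), Ppp1r3c (-3.33), Ptgfr (2.04), Ralgps1 (2.32), Rhof (-2.55), Rxrg (-1.49), Sdha (-0.86), Slc25a34 (-3.40), Sntb1 (1.42), Tmem179 (-1.93), Tmem79 (-2.18), Tmem82 (-4.25), Uvrag (0.95) and Zfhx4 (1.92). Against the response under etomoxir, the 25 were those of 2010003K11Rik (-1.64), 8430408G22Rik (2.17), Acot4 (-1.49), Atf3 (-1.15), Atf6 (0.87), Cd68 (-1.44), Egln3 (-2.59), Esr1 (2.05), Fabp9 (-4.54), Ffar4 (-2.62), Fzd4 (-1.06), Gzmm (-2.89), Hilpda (-1.27), Hspa1l (-1.04), Mitf (1.42), Pdp2 (-0.83), Pmp2 (-4.89), Ppp1r3c (-3.17), Ralgps1 (2.64), Rhof (-1.88), Sntb1 (2.24), Tmem79 (-1.94), Tmem82 (-2.48), Trp63 (1.94) and Uvrag (0.74). A negative value means a more negative response under triacsin C. Many of these did not pass in every fit with 1 sample left out. With any 1 sample left out, 11 of the 35 from no inhibitor kept an adjusted p under 0.05 in edgeR, those of 2010003K11Rik, Acot4, Atf3, Bmf, Egln3, Ffar4, Pmp2, Ralgps1, Slc25a34, Tmem79 and Tmem82, and 15 of the 25 from etomoxir, those of 8430408G22Rik, Atf3, Atf6, Egln3, Esr1, Ffar4, Gzmm, Hilpda, Pmp2, Ppp1r3c, Ralgps1, Rhof, Sntb1, Tmem79 and Tmem82. With trends over length and GC content removed, 27 of 34 and 16 of 23 that could be tested kept it. The outlying of single samples was not tested, since the groups hold 2 or 3 samples.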

How the results depend on the processing

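The counts of raised and lowered genes lay between 528 and 792 and between 935 and 1365 over all planned settings, within 1.5 times of 670 and 1223 (544 to 736 and 993 to 1223 when 1 sample was left out). The median over all genes tested, 0.02, was -0.02 without TC+SR-3420 replicate 3 and 0.08 without replicate 2. The counts of differences between responses moved more, and the cause was not tested. More positive than without inhibitor were 445 genes with DESeq2, 88 without a filter and 20 to 94 with 1 sample left out, and more negative 387, 75 and 28 to 106. More positive than under etomoxir were 454 genes with DESeq2 and 92 to 171 with 1 sample left out, and more negative 228, 59 without a filter and 51 to 91. A lone remaining sample is assumed to vary like the other groups.

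With the replicate number as a block, 713 genes rose and 1365 fell, and the 4 counts were 737, 932, 634 and 421. The correlations of same-numbered TC and TC+SR-3420 samples were -0.173, 0.355 and 0.481, and TC replicate 1 correlated best with TC+SR-3420 replicate 3 (0.259) and TC replicate 2 with replicate 1 (0.486). Those of ETO and ETO+SR-3420 were 0.827, -0.006 and 0.802. Pairs under 0.1 occur in both, so the numbers were not taken to pair the samples. Across groups, however, the 15 pairs of replicates 3 correlated at 0.464 to 0.802 and the 6 pairs of replicates 1 outside TC at 0.631 to 0.827, whereas TC replicate 1 correlated with the other replicates 1 at -0.286 to -0.173. Pairs of replicates 2 lay between -0.244 and 0.631. Whether a number marks a shared experiment is not given on the labels.

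Settings chosen after seeing the data removed trends over length and GC content, among the 11959 genes with a GC content. More positive than without inhibitor were then 173 genes and more negative 261, and 186 and 168 against etomoxir. With the replicate block as well the 4 counts were 521, 583, 478 and 429. The median of the shortest bin became 0.0147 (0.0122 with the block) and that of the longest 0.0776 (0.0776 with the block), which the construction of the setting brings about. With 1 sample left out they lay between -0.4449 and -0.3292 and between 0.4934 and 0.6356. The log2FC of Pparg, 0.01, lay between -0.0563 and 0.0749 with 1 sample left out, and was below 0 without TC replicate 1 (-0.0132) and without TC+SR-3420 replicate 3 (-0.0563). It was -0.4769 with the trends removed and -0.4784 with the trends removed and the replicate block. The log2FC of Trp63 was -0.4822 and -0.5124 in these settings. The log2FC of Ptgfr lay between -0.1777 and 0.0402 with 1 sample left out, and was 0.0261 without TC replicate 3 and 0.0402 without TC+SR-3420 replicate 2.

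Of 49 medians (lists, bins and all genes), 39 moved by more than the spread between replicates with the trends removed, and 1, that of PPAR target genes, when only the genes with a GC content were tested. With the trends removed 5 turned to the other side of 0 and 16 others changed by over 1.5 times. Without TC replicate 2, 17 moved by more than that spread, and without TC+SR-3420 replicate 3, 14.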
